A study of Mus musculus with 9 samples.

Results

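In lacrimal glands of female C57BL/6J mice, a rule with a margin and a level limit chose 26 protein coding genes. All were higher in the 3 libraries of 12 months than in any of the 6 libraries of 2 and 24 months. The lacrimal gland makes the watery part of the tear film, and total RNA of the gland was sequenced. Mice of 2 months (8W in the library titles), 12 months and 24 months were fed ad libitum under a daily cycle of light and dark, with 3 libraries at each age and no other treatment or allele named in the labels. The labels do not say whether a library came from 1 mouse or a pool, so a p-value here speaks of the spread among these libraries alone, and that spread could be technical. Libraries held 40516863 to 42573877 counts, and lacrimal acinar markers summed to between 263300 and 405200 CPM (depth-normalised counts, with library sizes corrected for composition by TMM) in each. Several libraries stood apart: salivary markers were highest in replicate 3 of 2 months and replicates 2 of 12 and 24 months, with a smaller amount in replicate 2 of 2 months, and skeletal muscle markers in replicates 1 and 3 of 12 months. In whole-gland RNA, fewer cells of a type and less RNA per cell cannot be told apart.

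The members were chosen on these values. On the deposited scale, log2(count / library factor + 1), the lowest 12-month library had to exceed the highest of the other 6 by at least 0.3, with a 12-month mean of at least 5. Immunoglobulin, T cell receptor, secretoglobin, Esp and solute carrier genes and 2 further single genes were left out by name, and 2 genes that met both limits fell away through this. The 26 genes are 0.238% of 10920 coding genes at that level, while 298 genes, 2.73%, had all 3 libraries of 12 months on top by any margin. Micall1, Greb1l and Ankra2 lay just inside the limit with margins of 0.33, 0.32 and 0.31. Mapt (0.29), Itgam (0.28) and Cadm4 (0.28) lay just outside it. A further 104 coding genes had the margin but were below the level. Differences of the members between 12 months and the other ages are therefore given without a test, and 24 against 2 months, which the rule did not use, is the comparison tested. Genes of the same cell types that are no members were tested in all 3 comparisons.

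The 26 genes are known from several kinds of cell. Skeletal muscle fibres contract through sarcomeres, in which myosin motors pull on actin filaments and troponin on those filaments answers calcium, and eye and face muscles lie next to the gland. B lymphocytes mature in follicles, where the complement receptor CD21 (Cr2) and the low-affinity IgE receptor CD23 (Fcer2a) mark resting follicular cells. Gland epithelium secretes fluid and proteins and also chemokines such as CCL28, which draws antibody-secreting cells that carry the receptor CCR10. By these known roles 6 members are muscle genes, 6 are genes of immune cells and 14 are others, a grouping made after the members were known.

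**Figure D1:**
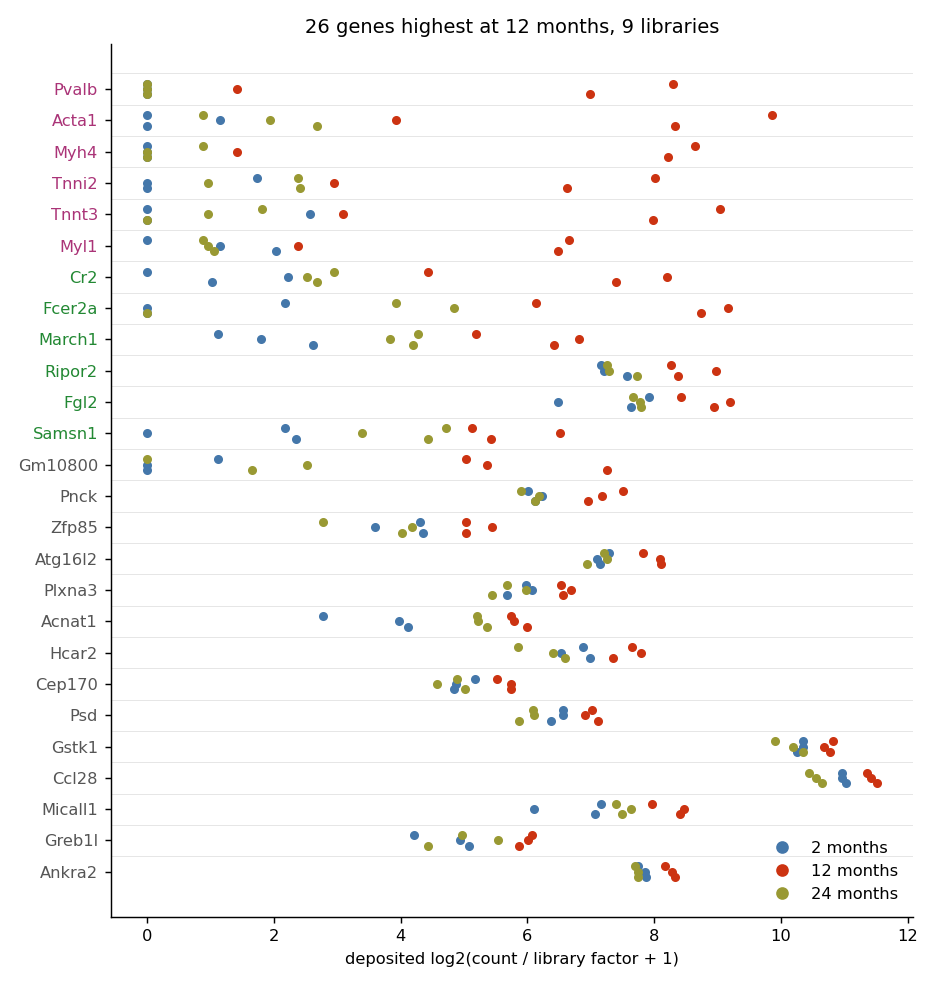
Deposited log2 values of the 26 genes in each of the 9 libraries, coloured by age. Gene names are magenta for muscle genes, green for immune genes and grey for the others. All red points lie to the right of the blue and olive points, as the rule requires. The red points of the 6 muscle genes are 4.28 to 7.23 apart, against 0.14 to 0.55 for the others without Gm10800.

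The promoters of 19 of the 26 genes were found in the RefSeq table of GRCm38.p6. The stretches shown are those that held a searched motif close to the start, for a B cell gene, the muscle genes and an epithelial or widely expressed gene. All end at the base before the RefSeq start and run 5′ to 3′ on the gene's strand, with motif letters in capitals (ATTGG and TTTATA are CCAAT and TATAAA on the other strand). They lie at chr8:3694175-3694364 (minus strand), chr8:123894776-123894875 (minus), chr11:67237712-67237811 (plus), chr1:66945057-66945156 (minus) and chr7:101302089-101302188 (minus).
Fcer2a: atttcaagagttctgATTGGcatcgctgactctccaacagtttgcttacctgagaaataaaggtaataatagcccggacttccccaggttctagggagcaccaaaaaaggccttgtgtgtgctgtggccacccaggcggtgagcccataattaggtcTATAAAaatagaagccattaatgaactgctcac
Acta1: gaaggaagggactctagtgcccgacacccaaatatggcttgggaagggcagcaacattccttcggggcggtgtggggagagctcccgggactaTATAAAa
Myh4: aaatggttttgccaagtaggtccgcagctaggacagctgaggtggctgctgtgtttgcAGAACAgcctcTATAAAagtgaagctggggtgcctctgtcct
Myl1: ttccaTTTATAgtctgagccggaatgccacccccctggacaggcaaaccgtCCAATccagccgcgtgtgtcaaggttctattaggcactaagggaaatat
Atg16l2: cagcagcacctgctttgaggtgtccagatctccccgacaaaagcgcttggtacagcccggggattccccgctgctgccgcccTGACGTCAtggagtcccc

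Within 250 bases before the start, on both strands, TATAAA was found in 4 of 19 members (Acta1, Fcer2a, Myh4 and Myl1) and in 14.3% of 27025 genes. This motif was added after the values had been seen. It began 33 bases before the start of Fcer2a, 31 before that of Myh4, and 7 before the RefSeq start of Acta1. The NF-Y motif CCAAT was in 3 of 19 (Fcer2a, Myl1, Ripor2) against 37.5% of genes, and the glucocorticoid receptor motif AGAACA in 2 (Myh4, Plxna3) against 18.2%. The cAMP response element TGACGTCA was in 1 (Atg16l2, 18 bases before the start) against 1.77%. The E-box CACGTG (6.86% of genes), the D-box forms TTATGTAA (0.977%) and TTACGTAA (0.118%) and the ETS motif CCGGAAGT (3.23%) were in 0 of 19. None of these motifs overlap another in the stretches shown. A match is only a run of letters, and its absence says nothing outside this window.

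The 6 muscle genes were carried by 2 of the 3 libraries of 12 months. They are Acta1, the actin of skeletal muscle; Myh4 and Myl1, a heavy and a light chain of fast myosin; Tnni2 and Tnnt3, the inhibitory and tropomyosin-binding subunits of fast troponin; and Pvalb, the calcium buffer parvalbumin of fast fibres. Acta1 (ENSMUSG00000031972, GRCm38 chromosome 8, 123891769 to 123894751) had 341, 17 and 985 counts in 12-month replicates 1, 2 and 3. At 2 months the counts were 0, 1 and 0, and at 24 months 5, 3 and 1. Replicates 1 and 3 were thus far above every other library and replicate 2 only a little above them. Myh4 had 316, 2 and 427 counts at 12 months, was at 0 in every library of 2 months, and had 0, 0 and 1 counts in those of 24 months. Tnnt3 had 268, 9 and 558 counts at 12 months, while no other library exceeded 4. Pvalb had 135, 2 and 334 counts and was at 0 in the other 6 libraries.

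Myh4 and Pvalb therefore met the rule with 2 counts in 12-month replicate 2. Tnni2 had 104, 8 and 275 counts and Myl1 94, 5 and 106, with at most 5 and 3 counts in any library of the other ages. All 6 were lowest in replicate 2 and highest in replicate 3. On the CPM scale, Acta1 in replicate 1 was 22.2 times its level in replicate 2, and Myh4 175 times. Replicate 3 stood 1.14 times (Myl1) to 2.91 times (Acta1) above replicate 1, so the 6 genes did not keep 1 ratio between these libraries. Summed over the age, Pvalb was at least 125-fold higher at 12 than at 2 months and at least 150-fold higher than at 24 months, taking 3 counts summed over a group as the floor. Myh4 was at least 198-fold higher than at 2 months. Tnnt3 was 167 times its level at 2 months and 200 times that at 24 months. Without 12-month replicates 1 and 3, none of the 6 met the rule while the other 20 members did. Leaving out libraries of 12 months cannot lower the margin of a member, so only the level limit of 5 could fail. In replicate 2 the 6 genes lay between 1.42 (Myh4 and Pvalb) and 3.93 (Acta1) on the deposited log2 scale. That the other 20 kept the margin was fixed by the rule.

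The rest of the skeletal muscle list, taken as a sum, was high in the same libraries. Its 11 genes that are no members summed to 17.1, 3.35 and 24.7 CPM in 12-month replicates 1, 2 and 3, to 2.15 to 3.23 CPM at 2 months and to 3.53 to 3.91 CPM at 24 months. Myh1 and Tnnc2 were at 0 at 2 months, and Tnnc2 at every age. Ckm, the creatine kinase of muscle, had 102, 14 and 134 counts at 12 months, and Ttn, the giant spring protein titin, had 104, 13 and 156. Mb did not follow them, with 42, 63 and 58 counts at 12 months and 64, 62 and 59 at 24 months. Myh2 had 7, 0 and 2 counts at 12 months. Of these 11 genes 6 had enough counts to be tested, against 4 when only the libraries of 2 and 24 months were used. Ckm and Ttn had at most 12 counts in any library of 2 or 24 months. Passing the count filter thus leaned on their 12-month counts, and their calls below are not independent of that filter. Between 2 and 12 months 4 were called higher at 12 (Atp2a1, Ckm, Mylpf and Ttn) and 0 lower (0 at an unadjusted p under 0.05, 0 by DESeq2), with a median log2 fold change of 2.41 against 0.01 over all genes (edgeR quasi-likelihood test, adjusted p under 0.05; 5.4% of all genes were called higher and 2.52% lower). That count was 2 without 2-month replicate 1, 0 without 2-month replicate 2 (8 at an unadjusted p under 0.05) and 1 without 2-month replicate 3. It was 1 without 12-month replicate 1 or 3 and 7 of 9 without 12-month replicate 2. Between 12 and 24 months 2 were called lower at 24 (Ckm, Ttn; background 1.6%) and 0 higher (0 at an unadjusted p under 0.05, 0 by DESeq2; background 2.79%), with a median of -2.22. Without 12-month replicate 1 or 3 it was 0 (4 unadjusted), and without 24-month replicate 2 or 3 also 0 (7 unadjusted). It was 1 without 24-month replicate 1, 3 without any 1 library of 2 months and 7 without 12-month replicate 2. Between 24 and 2 months 0 were called by edgeR, 1 at an unadjusted p under 0.05 and 1 by DESeq2 (Mb, myoglobin; median 0.62). Leaving out 12-month replicates 1 and 3 leaves 1 library of 12 months. The median log2 fold change was then 0.13 for 12 against 2 months and 0.26 for 24 against 12 months. Those 2 libraries were left out for their muscle transcripts, so a smaller difference was fixed in advance. Where the muscle transcripts came from was not tested.

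**Figure D2:**
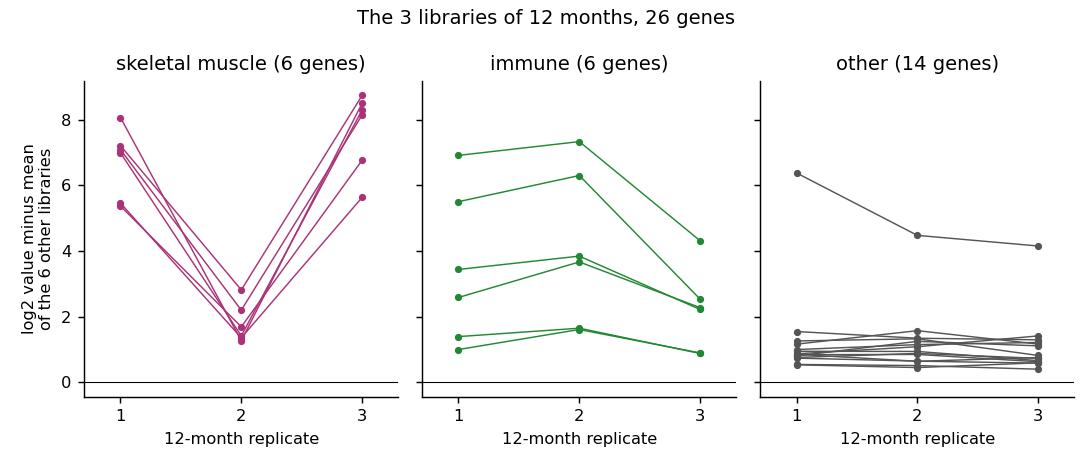
Log2 value of each gene in the 3 libraries of 12 months minus its mean over the 6 other libraries. Lines join the values of 1 gene and carry no order. Muscle genes dip in replicate 2, immune genes peak there and are lowest in replicate 3, and 13 of the 14 others stay level, the exception being Gm10800.

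Among the immune genes, Cr2 and Fcer2a showed the widest gap between 12 months and the other ages. In Cr2 (ENSMUSG00000026616, chromosome 1, 195136811 to 195176716) the 12-month counts were 180, 351 and 22. The counts of 2 months were 1, 3 and 0 and those of 24 months 5, 5 and 8. In Fcer2a (ENSMUSG00000005540, chromosome 8, 3681737 to 3694175) the 12-month counts were 455, 682 and 74, those of 2 months 0, 0 and 3, and those of 24 months 0, 29 and 17. In both, replicate 2 of 12 months was highest and replicate 3 lowest. That replicate 3 lay above every library of the other ages was required by the rule. Fcer2a was at 8.63 ± 6.29 CPM at 12 months (SD, n = 3) and 0.336 ± 0.332 at 24 months, a ratio of 25.2 over summed counts. Cr2 was at 3.91 ± 3.34 and 0.136 ± 0.0236 CPM, a ratio of 29.4. The ratio of 12 to 2 months was 110 for Cr2, on 4 counts at 2 months, and 322 for Fcer2a (95% counting interval 110 to 1565), on 3. Intervals here cover counting error only.

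Other B cell genes were also present at 24 months, so the members were set against them. Of the B cell list, 12 genes that are no members were tested, and 12 were called higher at 12 than at 2 months (edgeR; background 5.4%). Of these 12, 11 were called higher at 24 than at 2 months (background 9.81%) and 4 lower at 24 than at 12 months (background 1.6%). The 11 became 8 without 2-month replicate 2 and 9 without the library of each age with the most salivary markers. The 4 became 2 without any 1 library of 2 months or without 24-month replicate 3, and 12 without 12-month replicate 3. They became 0 without 24-month replicate 2 or 12-month replicate 1 (11 at an unadjusted p under 0.05 each), without 12-month replicate 2 (10 unadjusted), and without the library of each age with the most salivary markers (3 unadjusted). The 12 genes that are no members summed to 135, 203 and 22.8 CPM at 12 months, 0.558 to 0.849 CPM at 2 months and 20.6, 23.8 and 36.4 CPM at 24 months, and none was at 0 at any age. The level of the list in 12-month replicate 3 thus lay within its range at 24 months.

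As a share of the counts of the 14 B cell genes, these 12 and both members, Cr2 made up 2.73, 3.21 and 2.00% in 12-month replicates 1, 2 and 3, and 0.632, 0.466 and 0.436% at 24 months. The Wilson 95% interval in the shallowest 12-month library was 1.33 to 3.01%, and the highest upper bound at 24 months was 1.47%. Fcer2a made up 6.9, 6.23 and 6.73% at 12 months, and 0, 2.71 and 0.927% at 24 months, where the 0 rests on 791 counts and has an upper bound of 0.483%. For both genes the 3 shares of 12 months lay above the 3 of 24 months. In replicate 3 this was largely built in. The rule put both genes there above every 24-month library, while the list level lay within its 24-month range. At 2 months the list held 22 to 35 counts in all, too few to give a share. These shares are a description, since both genes were chosen for being high at 12 months.

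**Figure D3:**
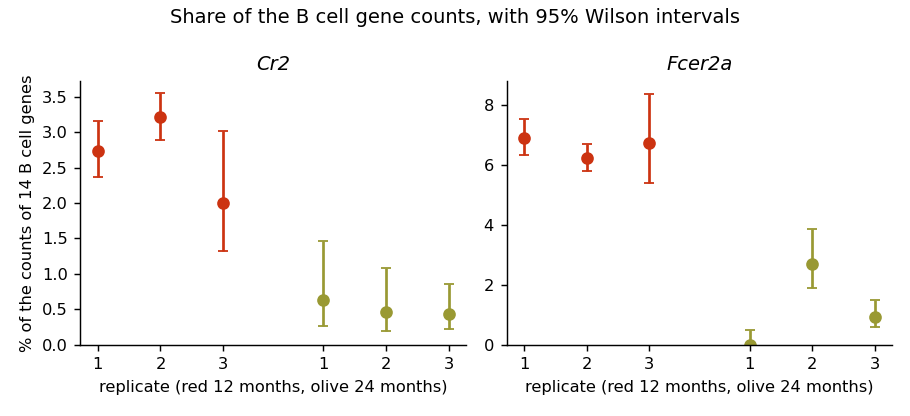
Counts of Cr2 and of Fcer2a as a percentage of the counts of 14 B cell genes in each library of 12 and 24 months, with 95% Wilson intervals for counting error. Cr2 lies at 2.00 to 3.21% at 12 months and 0.436 to 0.632% at 24 months. Fcer2a lies at 6.23 to 6.9% and at 0 to 2.71%.

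March1 and Samsn1 were intermediate at 24 months. March1 encodes a ubiquitin ligase that removes MHC class II from the surface of B cells and dendritic cells. It was at 0.125, 0.0587 and 0.0283 CPM at 2 months, 2.03, 2.74 and 0.863 at 12 months, against 0.419, 0.321 and 0.443 at 24 months. Samsn1, a signalling adaptor of haematopoietic cells that dampens B cell activation, was at 0.0997, 0 and 0.0849 CPM at 2 months, 1.02, 2.21 and 0.818 at 12 months, against 0.498, 0.229 and 0.604 at 24 months. The rule set 12 months apart. In both genes all 24-month libraries lay above those of 2 months, as in 18.4% of all genes tested. Both rose between 2 and 24 months in the test the rule had not used, March1 by 2.40 on the log2 scale (SE 0.63, edgeR adjusted p = 0.0224) and Samsn1 by 2.76 (SE 0.76, edgeR adjusted p = 0.0275).

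Both calls rest on few counts, 8 and 7 in all at 2 months. March1 was not called when replicate 2 (edgeR adjusted p = 0.081) or replicate 3 (0.0792) of 2 months or replicate 3 of 24 months (0.0607) was omitted. Samsn1 lost it without 2-month replicate 2 (0.0823) or 3 (0.0676), or 24-month replicate 1 (0.0519) or 3 (0.0873). Beside them, the B cell list without members summed to at most 0.849 CPM at 2 months and at least 20.6 at 24 months, the list of T and NK cells stood at 1.81 to 2.67 and 14.8 to 27.2 CPM, and that of macrophages and monocytes at 80.8 to 118 and 284 to 404 CPM. Of the 9 dendritic cell markers the sum was 4.13 to 4.53 CPM at 2 months, 10.4 to 12.9 at 12 months and 7.59 to 15.0 at 24 months. The part of these cells in the levels of March1 and Samsn1 was not tested.

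Ripor2 and Fgl2 were closer between the ages. Ripor2, an inhibitor of the GTPase RhoA found in lymphocytes, was at 4.61, 3.52 and 3.42 CPM at 2 months, 7.97, 12.3 and 7.45 at 12 months, against 5.11, 3.76 and 3.64 at 24 months. Fgl2, a fibrinogen-like protein of macrophages and T cells, was at 4.81, 2.11 and 5.86 CPM at 2 months, 11.8, 14.3 and 8.32 at 12 months, against 5.32, 5.27 and 4.83 at 24 months. The libraries of 2 and 24 months overlapped in both. Neither passed the test of 24 against 2 months (log2 fold change 0.11, SE 0.22, and 0.27, SE 0.30; edgeR adjusted p = 0.787 and 0.586). All 6 immune members were highest in 12-month replicate 2 and lowest in replicate 3, the order of the B cell list in these libraries. The T and NK cell list had the same order, at 32.1, 38.3 and 10.3 CPM, while the macrophage and monocyte list was at 210, 277 and 242 CPM. The order was not particular to the immune members. Plxna3, Cep170 and Micall1 among the others were also highest in replicate 2 and lowest in replicate 3. Of the 14 others, 8 were lowest in replicate 3.

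The most abundant members were the epithelial chemokine gene Ccl28 and Gstk1, a glutathione transferase of peroxisomes and mitochondria. Per kilobase of exon, Gstk1 was at 28.7 CPM at 12 months and Ccl28 at 13.8, while every other member was at or below 6.60 (Acta1). Ccl28 (ENSMUSG00000074715, chromosome 13, 119623819 to 119654359) was at 50.5, 47.9 and 48.2 CPM at 2 months, 70.3, 66.8 and 63.5 at 12 months, against 38.7, 36.3 and 33.6 at 24 months. The rule set 12 months apart. All 24-month libraries lay below those of 2 months, as in 16.6% of all genes tested. Ccl28 thus stood 1.37 times above its 2-month level at 12 months and 1.86 times above its 24-month level. Between 2 and 24 months, the comparison the rule had not used, it fell by 0.43 on the log2 scale (SE 0.09, edgeR adjusted p = 0.00697).

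The call of Ccl28 remained when any single library was left out. It was lost with scaling by library totals alone (log2 fold change -0.14, edgeR adjusted p = 0.409), which put the median over the whole table at 0.31 in place of 0.01. Relative to that median, the value was lower by a similar amount. Ccl28 is also made in salivary glands, whose markers differed between libraries. The salivary list summed to 0.573, 72.8 and 860 CPM in the 2-month libraries and 7.33, 252 and 1.17 in the 24-month libraries. Without the library of each age with the most salivary markers, Ccl28 was not called (log2 fold change -0.44, edgeR adjusted p = 0.107). The part of salivary tissue in its level was not tested. The list of plasma cells summed to 846 to 1030 CPM at 2 months and 1128 to 1163 at 24 months. That sum hides larger changes of single genes. Of its 10 genes 7 were called higher at 24 than at 2 months and 0 lower (edgeR; background 9.81 and 7.55%), with a median log2 fold change of 2.73. Duct markers summed to 993 to 1137 and 885 to 1006 CPM and lacrimal acinar markers to 319400 to 405200 and 263300 to 357800 CPM, both overlapping between these ages. Their part in the level of Ccl28 was not tested.

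**Figure D4:**
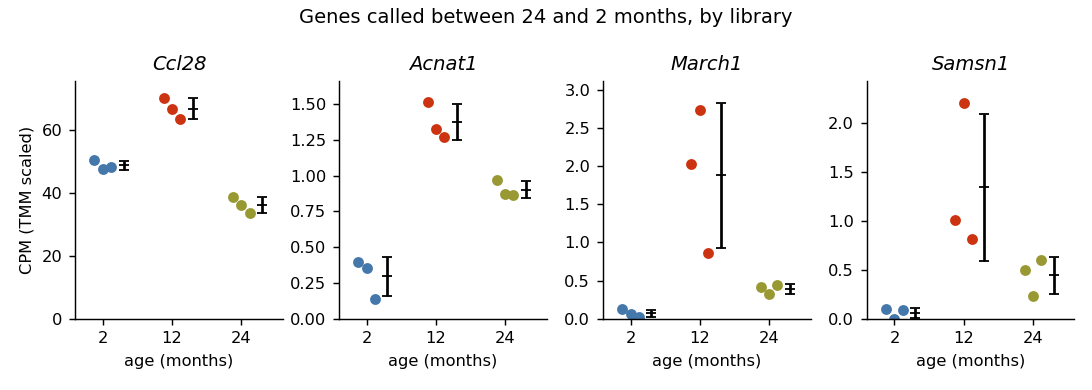
CPM in each library of the 4 genes called between 24 and 2 months, with mean and SD (n = 3) in black beside the points. All 4 are highest at 12 months, as the rule requires. Ccl28 is lowest at 24 months, from 33.6 to 38.7 CPM, and Acnat1, March1 and Samsn1 are lowest at 2 months.

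Acnat1, a peroxisomal enzyme that joins fatty acids to taurine, was higher at both later ages than at 2 months. It was at 0.399, 0.352 and 0.141 CPM at 2 months, 1.51, 1.33 and 1.27 at 12 months, against 0.969, 0.871 and 0.866 at 24 months. Its 24-month libraries all lay above those of 2 months, as in 18.4% of all genes tested, while the rule set 12 months apart. Acnat1 rose by 1.58 on the log2 scale between 2 and 24 months (SE 0.40, edgeR adjusted p = 0.0192), a call that was lost without 2-month replicate 3 (adjusted p = 0.0595), which had 5 of the 33 counts of that age. A close copy of this gene lies in the genome, and reads could have been split between them. Gstk1, the other peroxisomal member, was at 29.6, 31.0 and 31.6 CPM at 2 months, 42.1, 40.3 and 44.1 at 12 months, against 31.6, 28.1 and 23.0 at 24 months. Its libraries of 2 and 24 months overlapped (log2 fold change -0.16, SE 0.11, edgeR adjusted p = 0.352).

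Among genes of signalling, Pnck, a calmodulin-dependent protein kinase, was at 1.67, 1.76 and 1.53 CPM at 2 months, 2.98, 3.52 and 4.39 at 12 months, against 1.65, 1.72 and 1.41 at 24 months. Its mean at 12 months was 2.19 times that at 2 months and 2.29 times that at 24 months, and the outer ages overlapped (log2 fold change -0.05, SE 0.23, edgeR adjusted p = 0.905). Hcar2, the receptor for niacin and the ketone body beta-hydroxybutyrate, was at 3.06, 2.17 and 2.83 CPM at 2 months, 3.91, 5.40 and 4.86 at 12 months, against 2.30, 2.02 and 1.37 at 24 months. The 24-month libraries overlapped those of 2 months in the lower part of their range (log2 fold change -0.51, SE 0.24, edgeR adjusted p = 0.174). Plxna3, a semaphorin receptor, was 1.64 times its 2-month and 1.87 times its 24-month level at 12 months. Psd, an exchange factor for the GTPase ARF6, was at 1.99 to 2.26 CPM at 2 months. It was at 2.90 to 3.32 CPM at 12 months and 1.39 to 1.63 at 24 months, below every library of 2 months. Its decrease to 24 months did not pass the test (log2 fold change -0.48, SE 0.21, edgeR adjusted p = 0.135). Psd shares 299 exon bases, 3.92% of its exons, with Nfkb2 on the opposite strand, and the strand setting of the counting is not given in the sources used here.

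Among genes of membrane traffic and structure, Micall1, which shapes recycling endosomes, was at 3.24, 1.61 and 3.42 CPM at 2 months, 8.15, 8.65 and 6.02 at 12 months, against 4.35, 4.77 and 4.01 at 24 months. Its 24-month libraries all lay above those of 2 months, but 24 against 2 months did not pass (log2 fold change 0.66, SE 0.25, edgeR adjusted p = 0.0902). It did pass with DESeq2 (adjusted p = 0.0465) and with scaling by library totals alone (edgeR adjusted p = 0.0442). Micall1 shares 26.7% of its exon bases with a predicted gene on the opposite strand that held 97 counts over all libraries, against 1928 for Micall1. Atg16l2, a relative of the autophagy protein ATG16L1, was at 3.23 to 3.76 CPM at 2 months, 5.45 to 6.69 at 12 months and 2.96 to 3.65 at 24 months. Its 2 outer ages overlapped (log2 fold change -0.03, SE 0.17, edgeR adjusted p = 0.916). Cep170, a protein of centrosomes and microtubules, was 1.67 and 1.84 times its 2-month and 24-month levels at 12 months.

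The remaining members were Ankra2, an ankyrin repeat protein that binds class IIa histone deacetylases, Greb1l, a gene of kidney and inner ear development, Zfp85, a zinc finger gene, and the predicted gene Gm10800. Ankra2 was at 5.15 to 5.66 CPM at 2 months, 6.999 to 7.70 at 12 months and 4.97 to 5.16 at 24 months, so that its libraries were close within each age. Greb1l had 15 to 32 counts per library at 2 months, 61 to 76 at 12 months and 19 to 48 at 24 months. Zfp85 had 9 to 19, 34 to 51 and 7 to 18 counts. Zfp85 belongs to a large family of similar zinc finger genes and shares 14.4% of its exon bases with Zfp85os on the opposite strand, which held 45 counts over all libraries against 202 for Zfp85, so its value is uncertain. Gm10800 had the largest margin of all, 2.51, with 12-month counts of 163, 48 and 34. The 2-month counts were 0, 0 and 1 and the 24-month counts 2, 5 and 0. It covers 660 exon bases of repetitive sequence on chromosome 2 (98666547 to 98667301), and its reads may belong to other copies.

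In the 13 others without Gm10800, the 3 libraries of 12 months lay within 0.14 to 0.55 of each other on the deposited log2 scale (median 0.22). Their 12-month means exceeded those of 2 months by 0.44 to 2.22 (median 0.80) and those of 24 months by 0.53 to 1.52 (median 0.88). The immune members spread over 0.71 to 3.77 between the same libraries (median 1.51). The muscle members spread over 4.28 to 7.23 (median 5.93), with median differences of 5.71 from 2 months and 5.55 from 24 months. These values describe the chosen genes and carry no test.

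Between 24 and 2 months, 21 of the 26 members passed the count filter, and the 5 others were Myh4, Myl1, Pvalb, Tnni2 and Tnnt3. Of the 21, Acta1, Cr2, Fcer2a and Gm10800 passed it only through their 12-month counts. Acnat1, March1 and Samsn1 were called higher at 24 months and Ccl28 lower, with 17 not called (edgeR quasi-likelihood test, adjusted p under 0.05). Of all 14958 genes tested, 9.81% were called higher and 7.55% lower, so 3 and 1 of 21 are near the background. With only the libraries of 2 and 24 months in the table, 17 members passed the filter and 3 were called higher and 1 lower, against 9.33 and 6.27% of 14188 genes. The median log2 fold change was then -0.05 over the members and 0.01 over all genes, while over the 21 members it was 0.11. For Fcer2a the call depended on the filter: the log2 fold change was 3.51 (edgeR adjusted p = 0.143) as filtered and 3.52 (edgeR adjusted p = 3.1e-08) without a filter, and it was not tested with 2 ages alone. Over all 26, the libraries of 24 months lay above those of 2 months in 5 (18.4% of all genes tested), below in 2 (16.6%), and overlapped in 19. A gene that is not called may still differ. The SE of Cr2 (1.28), Fcer2a (1.55) and Acta1 (3.14) left room for changes of several-fold. Without 2-month replicate 3, 12-month replicate 2 and 24-month replicate 2, the library of each age with the most salivary markers, 0 members were called higher and 0 lower (5 and 1 at an unadjusted p under 0.05), with 2 libraries left at each age. The values there were 1.28 for Acnat1, 2.18 for March1, 3.33 for Samsn1 and -0.44 for Ccl28 (edgeR adjusted p = 0.166, 0.137, 0.0813 and 0.107).

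**Figure D5:**
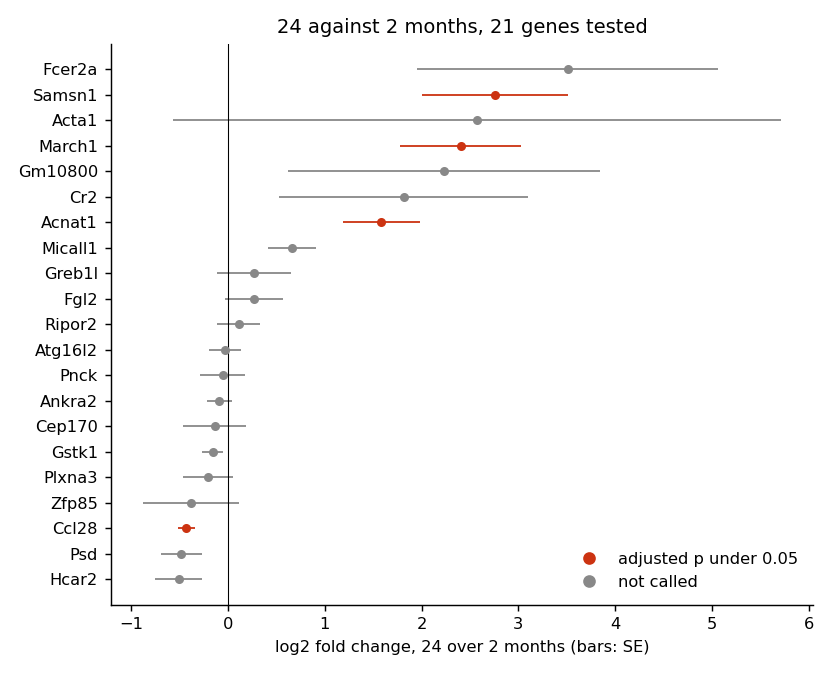
Log2 fold change of 24 over 2 months with its SE for the 21 members tested, ordered by value. Red points passed an adjusted p under 0.05 and are Samsn1, March1 and Acnat1 on the right and Ccl28 on the left.

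The members lie on 14 chromosomes, with 4 of 26 (15.4%) on chromosome 13, which holds 3.63% of coding genes at this level. Neighbours among those 4 (Ripor2, Zfp85, Ankra2 and Ccl28) are 21.3 to 43.0 megabases apart. The closest pair is Tnni2 and Tnnt3, 0.054 megabases apart on chromosome 7, followed by Pnck and Plxna3 at 0.669 on the X chromosome and Pvalb and Micall1 at 0.902 on chromosome 15. Of 31 lists of processes and cell types, 29 held no member, among them the lists of the circadian clock, glucocorticoid response, immediate early genes and heat shock. Skeletal muscle held 5 and B cells 2. The lists had 7 to 25 genes and members were 0.238% of coding genes at this level. Most lists would therefore hold none in any case, and a list without a member says little. The 2 single genes that the rule left out by name could not count, and neither stands in the clock list.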

How the data were processed

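Total RNA of lacrimal glands was purified (RNeasy Plus Micro) and read on a BGISEQ500RS as paired 100 bp reads, per the labels' protocols. The deposited counts are whole numbers for each gene. HTSeq, STAR, DESeq2, cutadapt, FastQC and the build GRCm38 are named by the submitters' processing notes. Not given in the sources used here were versions, annotation release and strand setting. Log2 values as deposited were checked to equal log2(count / factor + 1), with 100% within 1e-06, and were used for the selection rule. Counts were used for every test.

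Of 54232 genes 54165 had a symbol in GENCODE M21, which also gave gene types, exons and coordinates. All 9 libraries entered 1 edgeR 4.0.16 model of age, run in R 4.3.3 with TMM scaling (quasi-likelihood F test, filterByExpr with a minimum count of 10), with Benjamini-Hochberg adjustment over 14958 genes. CPM are TMM-scaled levels. The fit was tested on simulated data for 24 against 2 months. Of 100 genes changed by 1 on the log2 scale 48% were recovered, and of 100 changed by 2, 66%. Of 122 calls 8 were false. Python 3.11.15, pandas 2.3.3, scipy 1.17.1 and matplotlib 3.10.9 made the other values and figures. Members, groups and lists were chosen with earlier results of these data known. Named genes were the 25 largest margins, the 10 highest levels, members in a list, called members and the 3 genes on each side of the margin. Alternatives were other scalings, filters, DESeq2 1.42.0, a replicate block, fewer libraries and other limits of the rule.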

Additional observations from a re-analysis of the deposited data

How the results depend on the processing

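The number of members followed the limits of the rule. It was 52 with a margin of 0.2, 14 with 0.5, 35 with a level of 4 and 17 with a level of 6. It was 27 on TMM-scaled values, with all 26 kept, and 49 on values scaled by library totals, with 22 of the 26 kept (Samsn1, Micall1, Greb1l and Ankra2 were lost). Leaving out 1 library gave 32 to 249 members, where the rule asks less of fewer libraries. The number was 249 without 12-month replicate 3, against 58 and 55 without 12-month replicates 1 and 2, where the rule asks as much. Without the 2 libraries with muscle transcripts the rule gave 600, and without the library of each age with the most salivary markers 92. Replicate 2 of 2 months, at 72.8 CPM of salivary markers, stayed in that setting.

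Members called higher between 24 and 2 months numbered 3. They were 5 with no count filter, 4 with DESeq2 and 0 at an adjusted p under 0.01. Leaving out 1 library gave 0 to 3, with 0 without 2-month replicate 3 (5 at an unadjusted p under 0.05) and 1 without 2-month replicate 2 or 24-month replicate 3. Without the library of each age with the most salivary markers it was 0. Members called lower numbered 1, and 0 with library totals alone (0 unadjusted) or without those 3 libraries. With no count filter Fcer2a (log2 fold change 3.52, adjusted p = 3.1e-08) and Micall1 passed. Of the single values, 0 called ones changed sign, and 14 of those not called did. Leaving both muscle libraries out leaves 1 library of 12 months, taken to vary like the other ages.

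With the replicate number as a block, 2 members were called higher and 1 lower, and Samsn1 was not called (adjusted p = 0.0605). The correlation of same-numbered libraries of 2 and 24 months was -0.04 to 0.01, and 0 of 6 correlated best with their own number. No pairing by number was seen, but 3 libraries at each age cannot exclude it. Counting the lists without members was chosen after seeing the data. Over all alternatives, the skeletal muscle count ran from 0 to 7 for 12 against 2 months (1 with the block) and from 0 to 7 for 24 against 12 months (0 with the block). The B cell count ran from 9 to 12 for 12 against 2 months, from 8 to 12 for 24 against 2 and from 0 to 12 for 24 against 12 (0 with the block). At a depth of 40516863 to 42573877 counts, 5 members stayed untested between 24 and 2 months.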
